A study of Homo sapiens with 18 samples.

Results

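The effect of losing IKZF1 was compared between H929 and MM1S, 2 human multiple myeloma cell lines. For every gene, the log2 fold change of knockout over empty vector in MM1S was subtracted from that in H929, so a positive difference means a more positive response in H929. The comparison rests on 8 of the 18 libraries of the series, 2 in each of 4 groups: H929 with a CRISPR-Cas9 knockout of IKZF1, H929 with an empty vector, MM1S with the knockout, and MM1S with the empty vector. The knockout is inducible: doxycycline at 1 µg/mL turned on the guide RNA, the empty vector controls received it too, and after 72 h live cells were sorted by flow cytometry and their RNA was taken. The sources used here do not say whether the 2 knockout libraries of a line are clones, guides or cultures, so they are called a and b, and p-values measure the spread between these libraries only. The remaining libraries, all from OPM2 cells, shared the filter on low counts, the scaling and the estimate of the spread. They came from IKZF1 knockout, IKZF3 knockout and empty vector cells, all with doxycycline at 1 µg/mL, and from lenalidomide-treated and untreated cells. The OPM2 response to IKZF1 knockout is given for 2 gene lists only.

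IKZF1 encodes Ikaros, a zinc finger transcription factor of lymphoid cells that can switch genes off by bringing repressive chromatin complexes to DNA. In myeloma, Ikaros and its relative Aiolos (IKZF3) are the proteins that lenalidomide sends to the proteasome through cereblon, and the study's title concerns CD38, the surface target of daratumumab. H929 carries a chromosome rearrangement that activates NSD2, whereas MM1S carries one that activates MAF. In the interferon pathway, receptors signal through JAK kinases and STAT proteins to interferon-stimulated genes, and the ATF4 response raises amino acid synthesis and transport when amino acids run short. Of the gene lists examined, the interferon-stimulated genes and the ATF4 genes had the largest shares of members called higher in H929 than in MM1S, 68.9% and 59.1%, against 6.94% of all genes tested.

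Library totals ran from 12020380 to 20757799 counts in these 8 libraries. Pairs of libraries of 1 group were not equally close. Between H929 knockout libraries a and b, 318 genes differed by more than 2-fold, against 5 between the H929 empty vector libraries, 72 between the MM1S knockout libraries and 5 between the MM1S empty vector libraries. Results on H929 are therefore given with and without library a where that matters. The OPM2 empty vector pair, which adds to the shared spread, stood farthest apart, with 951 such genes. All 8 plasma cell markers were above 1 CPM in every group, whereas markers of T and NK cells, myeloid cells, stroma and erythroid cells summed to at most 311.8 CPM in any library, against at least 7192 CPM for the plasma cell markers. Of the T and NK sum in H929, NCAM1 made up the larger part, with 178 and 277 CPM in H929 knockout cells against 205 and 210.5 CPM in H929 empty vector cells, and CD3G and KLRD1 had 0 counts in all 4 groups. The summed myeloid markers moved with the knockout, at 181.3 to 249.7 CPM in H929 knockout cells against 39.6 to 41.2 CPM in H929 empty vector cells, and 81.8 to 87.2 CPM in MM1S knockout cells against 50.1 to 50.7 CPM in MM1S empty vector cells. CD68, a lysosomal protein, made up most of that sum, with 248 and 179.6 CPM in H929 knockout cells against 37.4 and 40.1 CPM in H929 empty vector cells. CD68 in MM1S stood at 80.1 and 72.7 CPM in knockout cells against 34.3 and 34.3 CPM in empty vector cells. Of the 10 myeloid markers, 9 were at or under 1 CPM in H929 knockout and 9 in H929 empty vector cells. In MM1S these were 6 in knockout and 7 in empty vector cells. FCGR3A, MPO and S100A8 had 0 counts in both knockout groups. Of 5 markers tested, 1 rose in H929 (5.92% of all genes). In MM1S 3 rose (15.6% of all genes) and 1 fell (12.6%). The part of these markers in the results was not tested. Because RNA was taken in bulk, fewer cells of a kind and less RNA per cell cannot be told apart in any value given here.

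The transcript of the targeted gene was not lower in knockout cells. IKZF1 (chromosome 7, 50303455 to 50405101 on GRCh38) had 124 and 188 CPM in H929 knockout cells against 128 and 120.1 CPM in H929 empty vector cells. IKZF1 in MM1S stood at 312 and 333 CPM in knockout cells against 179 and 185 CPM in empty vector cells. Its log2 fold change was 0.33 ± 0.23 in H929 and 0.83 ± 0.23 in MM1S, and the difference of -0.49 ± 0.33 (adjusted p = 0.374 by edgeR) was not called, with a 95% interval of -1.20 to 0.21. Cas9 cuts can disrupt the protein and leave the mRNA, so these levels do not check the knockout in either line.

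Of 14571 genes tested, 2310 were called in the difference at an adjusted p below 0.05 (15.9% of the genes tested), 1011 higher in H929 (6.94%) and 1299 lower (8.91%). The median difference over all genes tested was -0.02 on the log2 scale, and 688 of the higher and 858 of the lower calls exceeded 2-fold. Within the lines, knockout changed 1532 genes in H929 (10.5%), 862 up and 670 down, and 4114 genes in MM1S (28.2%), 2273 up and 1841 down. The 2310 genes fall into distinct patterns. A response called in MM1S alone accounted for 1438 of them, with 836 up and 602 down in MM1S, and a response called in H929 alone for 411, with 219 up and 192 down. In 208 genes (1.43% of the genes tested) both lines responded, in opposite directions: 72 rose in H929 and fell in MM1S, and 136 fell in H929 and rose in MM1S. A further 110 moved the same way in both lines by different amounts, and 143 were called in neither line. When each of the 8 libraries was left out in turn, 1122 genes were called in every fit, 518 higher and 604 lower, and the total ran from 1436 to 2135. The total was 4080 when only these 8 libraries were fitted, and 4306 or 4316 without 1 or the other OPM2 empty vector library. None of the 2310 genes was called in the opposite direction under any of these settings.

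**Figure D1:**
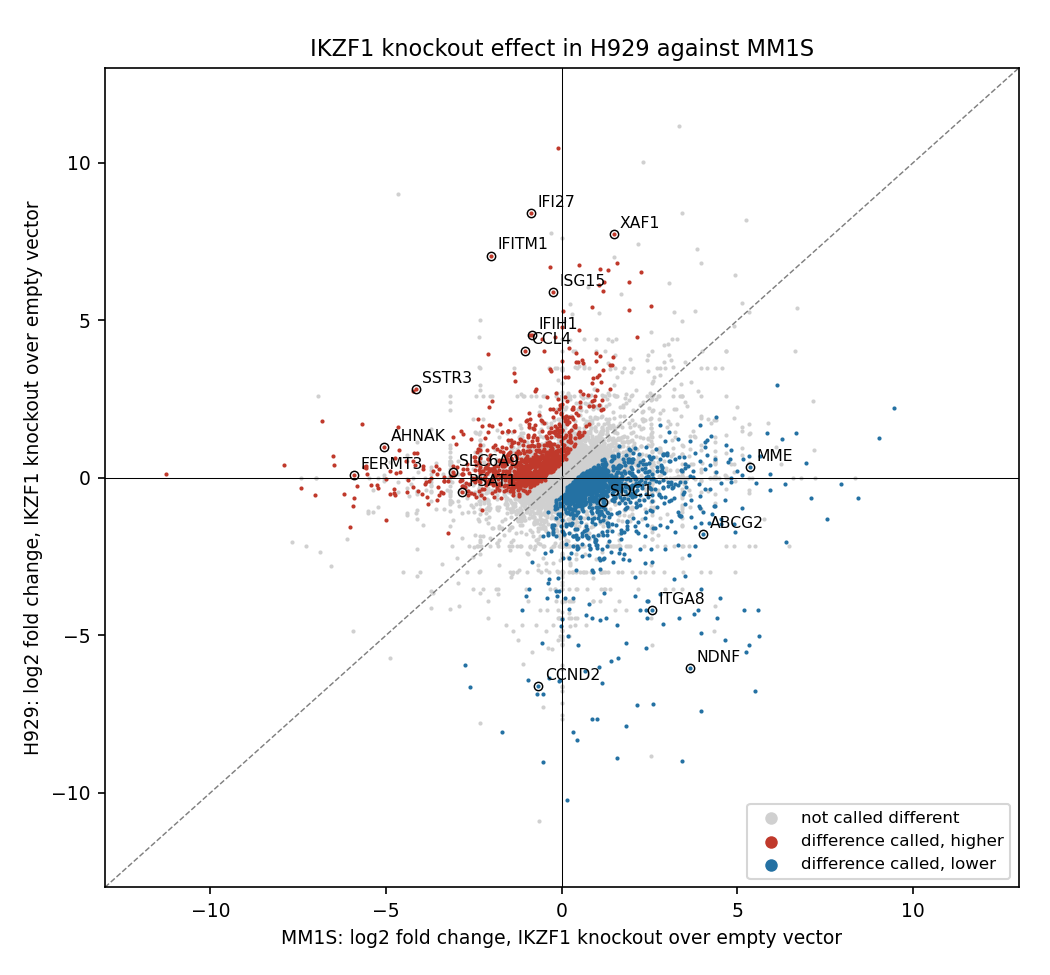
Each point is 1 of 14571 genes, with the log2 fold change of IKZF1 knockout over empty vector in MM1S on the x axis and in H929 on the y axis, and the dashed line marks equal responses. Interferon-stimulated genes such as IFI27, IFITM1 and ISG15 lie high on the H929 axis and at or below 0 on the MM1S axis, and NDNF, ITGA8 and ABCG2 lie in the quadrant that fell in H929 and rose in MM1S.

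Among the gene lists examined, the interferon-stimulated genes had the highest median difference, and nearly all of them rose in H929. Of 61 members tested, 42 were called higher in the difference and 0 lower, with a median difference of 2.53, against 6.94% higher and a median of -0.02 over all genes tested. Within the lines, 58 of 61 rose in H929 (5.92% of all genes), where the median log2 fold change was 3.69, and 26 of 61 rose in MM1S (15.6% of all genes), with a median of 0.69. None fell in either line, and 24 rose in both. The MM1S count was 15 to 30 when 1 of the 8 libraries was left out, lowest without MM1S empty vector library 1, MM1S empty vector library 2 or MM1S knockout library a. The summed level of the 61 genes was 30070 and 15720 CPM in H929 knockout libraries a and b against 3144 and 3146 CPM in the H929 empty vector libraries, and 3552 and 3415 CPM in the MM1S knockout libraries against 2535 and 2540 CPM in the MM1S empty vector libraries. Both H929 knockout libraries were above all others in this sum, and library a was the higher of the pair for 59 of the 61 genes. Without library a the list still had 38 members called higher and a median difference of 1.92, and without library b it had 48. A total of 35 members were called higher in every fit that left out 1 of the 8 libraries.

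The interferon-stimulated response element, bound by STAT2 with IRF9 and by other interferon regulatory factors, has as its core a pair of GAAA stretches with any 2 bases between them. In RefSeq promoters of GRCh38.p14, taken as 300 bases from 250 before to 50 after the first listed gene start and read on both strands, this core was present in 32 of the 48 interferon-stimulated genes that had a promoter in the table (66.7%). It was present in 338 of 11376 tested genes with a promoter (2.97%) and in 3.65% of all promoters in the table. Among genes called in the difference, it was found in 51 of 757 promoters of higher genes (6.74%) and in 21 of 1028 promoters of lower genes (2.04%). The stretches around the core are shown for the 5 called members with the largest differences that held a match upstream of that listed start, 5′ to 3′ on the strand of the gene, with each match in capitals. On the opposite strand the core reads TTTC, any 2 bases, TTTC. For IFI27 the listed start lies inside the span of the gene in the annotation, well downstream of its first base.
IFI27, chr14:94110616-94110675, plus strand: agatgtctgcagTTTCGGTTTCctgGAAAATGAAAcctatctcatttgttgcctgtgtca
IFITM1, chr11:313975-314034, plus strand: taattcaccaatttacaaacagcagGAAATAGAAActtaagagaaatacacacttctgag
ISG15, chr1:1013365-1013424, plus strand: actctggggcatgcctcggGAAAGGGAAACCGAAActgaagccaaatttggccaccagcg
IFI44, chr1:78649746-78649788, plus strand: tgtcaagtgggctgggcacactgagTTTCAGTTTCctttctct
TNFSF10, chr3:172523583-172523642, minus strand: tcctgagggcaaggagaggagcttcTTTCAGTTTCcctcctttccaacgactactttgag
IFI27 holds a match on each strand and ISG15 a pair of overlapping matches on 1 strand. TGGGAA, the core of sites bound by Ikaros, was present in 8 of 48 promoters of interferon-stimulated genes (16.7%) and in 21.6% of promoters of tested genes. It was present in 20.6% of promoters of genes called higher and 21% of those called lower. A match is a description of the letters in this window and shows neither binding nor its absence.

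IFI27, a mitochondrial protein and one of the most strongly interferon-induced genes (chromosome 14, 94105894 to 94116690 on GRCh38), had 837 and 459.8 CPM in H929 knockout cells against 1.53 and 2.28 CPM in H929 empty vector cells. IFI27 in MM1S stood at 0.136 and 0.166 CPM in knockout cells against 0.176 and 0.396 CPM in empty vector cells. Both H929 knockout libraries stood far above the other 6, which were all below 3 CPM. The difference was 9.27 ± 1.60 (adjusted p = 0.00113 by edgeR). IFITM1, a membrane protein that blocks virus entry (chromosome 11, 314040 to 315272), had 910.0 and 394 CPM in H929 knockout cells against 4.59 and 5.22 CPM in H929 empty vector cells. IFITM1 in MM1S stood at 0.407 and 0.248 CPM in knockout cells against 1.53 and 1.19 CPM in empty vector cells, and its difference was 9.05 ± 0.76 (adjusted p = 2.49e-06 by edgeR). ISG15, a ubiquitin-like protein joined to other proteins during antiviral defence (chromosome 1, 1013497 to 1014540), had 2694 and 1205 CPM in H929 knockout cells against 31.1 and 34.4 CPM in H929 empty vector cells. ISG15 in MM1S stood at 3.46 and 3.81 CPM in knockout cells against 4.41 and 4.22 CPM in empty vector cells. It was lower in MM1S than in H929 already in empty vector cells, and its difference was 6.15 ± 0.61 (adjusted p = 1.04e-05 by edgeR). USP18, the protease that removes ISG15 and restrains the interferon receptor, had 46.9 and 20.9 CPM in H929 knockout cells against 0.340 and 0.304 CPM in H929 empty vector cells. USP18 in MM1S stood at 1.29 and 0.580 CPM in knockout cells against 1.41 and 0.989 CPM in empty vector cells, and its difference was 7.02 ± 0.77 (adjusted p = 2.7e-05 by edgeR). In all 4 genes both H929 knockout libraries stood above every other library, and no MM1S change was called.

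A second set of interferon-stimulated genes rose in both lines, more in H929. XAF1, a factor that promotes cell death, had 186 and 78.9 CPM in H929 knockout cells against 0.793 and 0.456 CPM in H929 empty vector cells. XAF1 in MM1S stood at 5.50 and 4.55 CPM in knockout cells against 1.53 and 2.11 CPM in empty vector cells. Its log2 fold change was 7.73 ± 0.54 in H929 and 1.48 ± 0.51 in MM1S, and the difference was 6.25 ± 0.79 (adjusted p = 0.000121 by edgeR). PARP14, an ADP-ribosyltransferase, had 440.4 and 221 CPM in H929 knockout cells against 5.10 and 4.36 CPM in H929 empty vector cells. PARP14 in MM1S stood at 64.2 and 60.5 CPM in knockout cells against 29.7 and 30.5 CPM in empty vector cells, and its difference was 5.08 ± 0.41 (adjusted p = 2.11e-06 by edgeR). DTX3L, the ubiquitin ligase partner of PARP9, had 139 and 70.0 CPM in H929 knockout cells against 1.81 and 1.62 CPM in H929 empty vector cells. DTX3L in MM1S stood at 51.5 and 41.8 CPM in knockout cells against 21 and 20.1 CPM in empty vector cells, and its difference was 4.74 ± 0.37 (adjusted p = 1.64e-06 by edgeR). For all 3 genes the MM1S knockout libraries were also above both MM1S empty vector libraries. IFI6, which guards the endoplasmic reticulum against viral replication, changed by 5.46 ± 0.41 in H929 and 2.53 ± 0.40 in MM1S, a difference of 2.93 ± 0.53 (adjusted p = 0.00168 by edgeR) that was not called when only the 8 libraries were fitted (adjusted p = 0.114 by edgeR). MX1, a GTPase that traps viral particles, changed by 5.34 ± 0.53 in H929 and 1.91 ± 0.48 in MM1S, a difference of 3.43 ± 0.66 (adjusted p = 0.00235 by edgeR). Knockout and empty vector libraries of H929 did not overlap for any of these 5 genes, which were picked with their values known. PLSCR1, a phospholipid scramblase that interferon induces, had 403 and 203 CPM in H929 knockout cells against 11.6 and 11.9 CPM in H929 empty vector cells. PLSCR1 in MM1S stood at 40.3 and 29.7 CPM in knockout cells against 25.1 and 24.5 CPM in empty vector cells. Its MM1S log2 fold change of 0.50 ± 0.26 was not called, and its difference was 4.19 ± 0.37 (adjusted p = 4.46e-06 by edgeR).

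Some members rose in both lines with no difference called. UBA7, the activating enzyme for ISG15, rose by 2.49 ± 0.27 in H929 and 2.69 ± 0.27 in MM1S, a difference of -0.19 ± 0.37 (adjusted p = 0.812 by edgeR) with a 95% interval of -0.99 to 0.60. RTP4, a chaperone of membrane receptors, rose by 2.64 ± 0.46 in H929 and 2.01 ± 0.33 in MM1S, and the interval of its difference was -0.60 to 1.86. IFITM2, whose difference was called, had the largest fitted difference of the list, with 81.5 and 16.1 CPM in H929 knockout cells against 0.0566 and 0 CPM in H929 empty vector cells. IFITM2 in MM1S stood at 0.747 and 0.994 CPM in knockout cells against 1.18 and 0.660 CPM in empty vector cells, but it had 1 count over both H929 empty vector libraries, so its fitted fold is not given. IFITM1, IFITM2 and IFITM3 are close copies, and reads could be shared between them in counting.

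Part of the signalling chain, mainly STAT2, IRF9 and IRF7, moved with these genes. Of 27 interferon receptors, kinases, STATs and interferon regulatory factors, 8 were called higher in the difference and 2 lower, with a median of 0.25, against 6.94% and 8.91% of all genes. When 1 of the 8 libraries was left out, these counts were 7 to 8 and 1 to 2. No rise of a receptor chain was called in H929. IFNAR2, a chain of the type I receptor, had 149.6 and 175 CPM in H929 knockout cells against 188 and 187 CPM in H929 empty vector cells. IFNAR2 in MM1S stood at 170.4 and 157 CPM in knockout cells against 99.7 and 97.4 CPM in empty vector cells. It was called higher in MM1S knockout cells, no change was called in H929, and its difference was -0.94 ± 0.17 (adjusted p = 0.00139 by edgeR). IFNAR1, the partner chain, changed by -0.18 ± 0.13 in H929 and 0.49 ± 0.13 in MM1S, and its difference of -0.67 ± 0.19 (adjusted p = 0.0249 by edgeR) was called in 1 of the 8 fits that left out a library. IFNGR1, IFNGR2, IFNLR1 and IL10RB gave differences between -0.45 and 0.04, none called.

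Among the kinases, JAK2 had 60.0 and 52 CPM in H929 knockout cells against 33.2 and 29.4 CPM in H929 empty vector cells. JAK2 in MM1S stood at 16.8 and 21.4 CPM in knockout cells against 24.8 and 29.8 CPM in empty vector cells, and its difference was 1.36 ± 0.29 (adjusted p = 0.00538 by edgeR), whereas JAK1 and TYK2, the kinases of the type I receptor, were not called, with 95% intervals of the difference of -0.68 to 0.67 and -0.61 to 0.16. STAT2, a transcription factor of the pathway, rose in both lines, by 2.14 ± 0.17 in H929 and 1.11 ± 0.17 in MM1S, and the difference was 1.03 ± 0.23 (adjusted p = 0.00734 by edgeR). IRF9, which binds DNA together with STAT2 (chromosome 14, 24161265 to 24166565), had 165 and 123 CPM in H929 knockout cells against 26.9 and 32.9 CPM in H929 empty vector cells. IRF9 in MM1S stood at 16 and 16.3 CPM in knockout cells against 8.70 and 8.77 CPM in empty vector cells. It too rose in both lines, and the difference was 1.38 ± 0.24 (adjusted p = 0.00123 by edgeR). STAT3, STAT5A and STAT5B showed no called difference (-0.10, 1.25 and 0.20).

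IRF7, the factor that amplifies interferon production (chromosome 11, 612555 to 615950), had 437 and 330.0 CPM in H929 knockout cells against 35.8 and 37.7 CPM in H929 empty vector cells. IRF7 in MM1S stood at 22.8 and 25.6 CPM in knockout cells against 28.4 and 31.3 CPM in empty vector cells. Its change was 3.38 ± 0.19 in H929 and -0.30 ± 0.19 in MM1S, and the difference was 3.69 ± 0.26 (adjusted p = 8.07e-07 by edgeR). IRF5, another inducer of interferon and cytokines, was called higher with a difference of 1.55 ± 0.32 (adjusted p = 0.00391 by edgeR). IRF1 rose in both lines, and its difference of 0.96 ± 0.30 (adjusted p = 0.0395 by edgeR) was lost in 7 of the 8 fits without 1 library, with adjusted p up to 0.211, and stood at 0.54 without H929 knockout library a. IRF2, IRF3, IRF8 and IRF4, the myeloma survival factor, were not called (-0.17, -0.04, 0.75 and 0.43). IRF4 had 2144 and 2166 CPM in H929 knockout cells against 1944 and 1846 CPM in H929 empty vector cells. IRF4 in MM1S stood at 594 and 652 CPM in knockout cells against 709 and 766 CPM in empty vector cells, and the 95% interval of its difference was -0.02 to 0.88. SOCS1, a feedback inhibitor of JAK kinases, had 80.7 and 20.5 CPM in H929 knockout cells against 4.08 and 3.80 CPM in H929 empty vector cells. SOCS1 in MM1S stood at 3.19 and 3.64 CPM in knockout cells against 2.12 and 2.84 CPM in empty vector cells, and its difference was 3.22 ± 0.73 (adjusted p = 0.00768 by edgeR). The SOCS1 difference was 1.92 without H929 knockout library a, and it was not called when only the 8 libraries were fitted (adjusted p = 0.144 by edgeR) or by limma-voom (adjusted p = 0.0623). SOCS3 had 0 counts in the MM1S knockout libraries and 5 over the MM1S empty vector libraries, so that line gives no usable fold. PIAS1, PTPN6 and PTPN11, which restrain the pathway, gave differences from -0.08 to 0.33, none called.

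Many sensors that detect foreign or misplaced nucleic acids rose in H929 as well. Of 22 sensors and adaptors, 12 were called higher in the difference and 3 lower, with a median of 0.74. Of all genes, 6.94% were called higher and 8.91% lower, and in H929 5.92% rose and 4.60% fell. In H929 12 rose and 1 fell, and in MM1S 5 rose and 3 fell, the MM1S shares being near those of all genes (15.6% up and 12.6% down). When each of the 8 libraries was left out in turn, 8 to 11 were called higher and 1 to 3 lower, with the fewest higher without H929 empty vector library 2 or MM1S knockout library a. In MM1S 3 to 5 rose and 0 to 4 fell in those fits. IFIH1, the cytoplasmic sensor of long double-stranded RNA also called MDA5 (chromosome 2, 162267074 to 162318684), had 458 and 181 CPM in H929 knockout cells against 13.8 and 14 CPM in H929 empty vector cells. IFIH1 in MM1S stood at 66.9 and 60.6 CPM in knockout cells against 114 and 114 CPM in empty vector cells. It rose in H929 and fell in MM1S, and both H929 knockout libraries were above all 4 MM1S libraries although the H929 empty vector libraries were below them. The difference was 5.36 ± 0.42 (adjusted p = 1.67e-06 by edgeR). DDX58, which encodes the sensor RIG-I (chromosome 9, 32455302 to 32526196), had 99.7 and 41.3 CPM in H929 knockout cells against 2.04 and 1.57 CPM in H929 empty vector cells. DDX58 in MM1S stood at 13.2 and 12.5 CPM in knockout cells against 11.9 and 13.4 CPM in empty vector cells, and the difference was 5.26 ± 0.48 (adjusted p = 5.35e-06 by edgeR). TMEM173, which encodes the adaptor STING (chromosome 5, 139475533 to 139482758), had 89.7 and 71.1 CPM in H929 knockout cells against 13.1 and 12.1 CPM in H929 empty vector cells. TMEM173 in MM1S stood at 8.62 and 10.8 CPM in knockout cells against 11.3 and 10.5 CPM in empty vector cells, and the difference was 2.85 ± 0.24 (adjusted p = 3.11e-06 by edgeR). The MM1S levels of DDX58 and TMEM173 overlapped between knockout and empty vector libraries.

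For TLR7, the endosomal sensor of single-stranded RNA, the H929 rise brought the lines closer in level. It had 11.6 and 9.56 CPM in H929 knockout cells against 0.283 and 0.456 CPM in H929 empty vector cells. TLR7 in MM1S stood at 63.9 and 93 CPM in knockout cells against 80.0 and 76.8 CPM in empty vector cells. After a rise of 4.79 ± 0.39 it was still lower in H929 than in MM1S, and the difference was 4.79 ± 0.46 (adjusted p = 9.01e-06 by edgeR). MYD88, the adaptor of Toll-like receptors, rose by 1.98 ± 0.19 in H929 and fell in MM1S with a log2 fold change of -0.64 ± 0.20, a difference of 2.62 ± 0.27 (adjusted p = 1.68e-05 by edgeR). AIM2, a DNA sensor of the inflammasome, gave a difference of 3.51 ± 0.62 (adjusted p = 0.00131 by edgeR), not called when only the 8 libraries were fitted (adjusted p = 0.0565 by edgeR). TLR3, a sensor of double-stranded RNA, went the other way, with 0.936 and 0.771 CPM in H929 knockout cells against 2.66 and 2.33 CPM in H929 empty vector cells. TLR3 in MM1S stood at 3.19 and 4.14 CPM in knockout cells against 0.940 and 1.05 CPM in empty vector cells, and its difference was -3.40 ± 0.63 (adjusted p = 0.0022 by edgeR). CGAS, the DNA sensor upstream of STING, gave 1.22 ± 0.33 (adjusted p = 0.0218 by edgeR), a call that held in 1 of the 8 fits without 1 library. TBK1, TRAF3 and TRAF6 gave differences of 0.15, -0.19 and -0.16, none called.

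Transcripts of the interferons themselves were rare. None of 10 interferon genes passed the filter on low counts, so they have raw counts and no test. IFNB1, the beta interferon, had 10 and 3 counts in H929 knockout libraries a and b and 0 in every other library of the 8. IFNL3 had 48 and 4 counts in H929 knockout libraries a and b, and IFNL2 had 24 and 5, with 0 in every other library of the 8 for both. IFNL1 had 21 and 4 counts in the H929 knockout libraries against 2 and 6 in the H929 empty vector libraries, and 0 in all 4 MM1S libraries. IFNA1, IFNA2 and IFNK had 0 counts in all 8 libraries, and IFNE, IFNW1 and IFNG had at most 3 counts in any of them. The count in library a exceeded that in library b for IFNB1 and the 3 lambda interferons, as it did for most interferon-stimulated genes. IFNL2 and IFNL3 are near-identical copies, so their counts may be split between them.

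**Figure D2:**
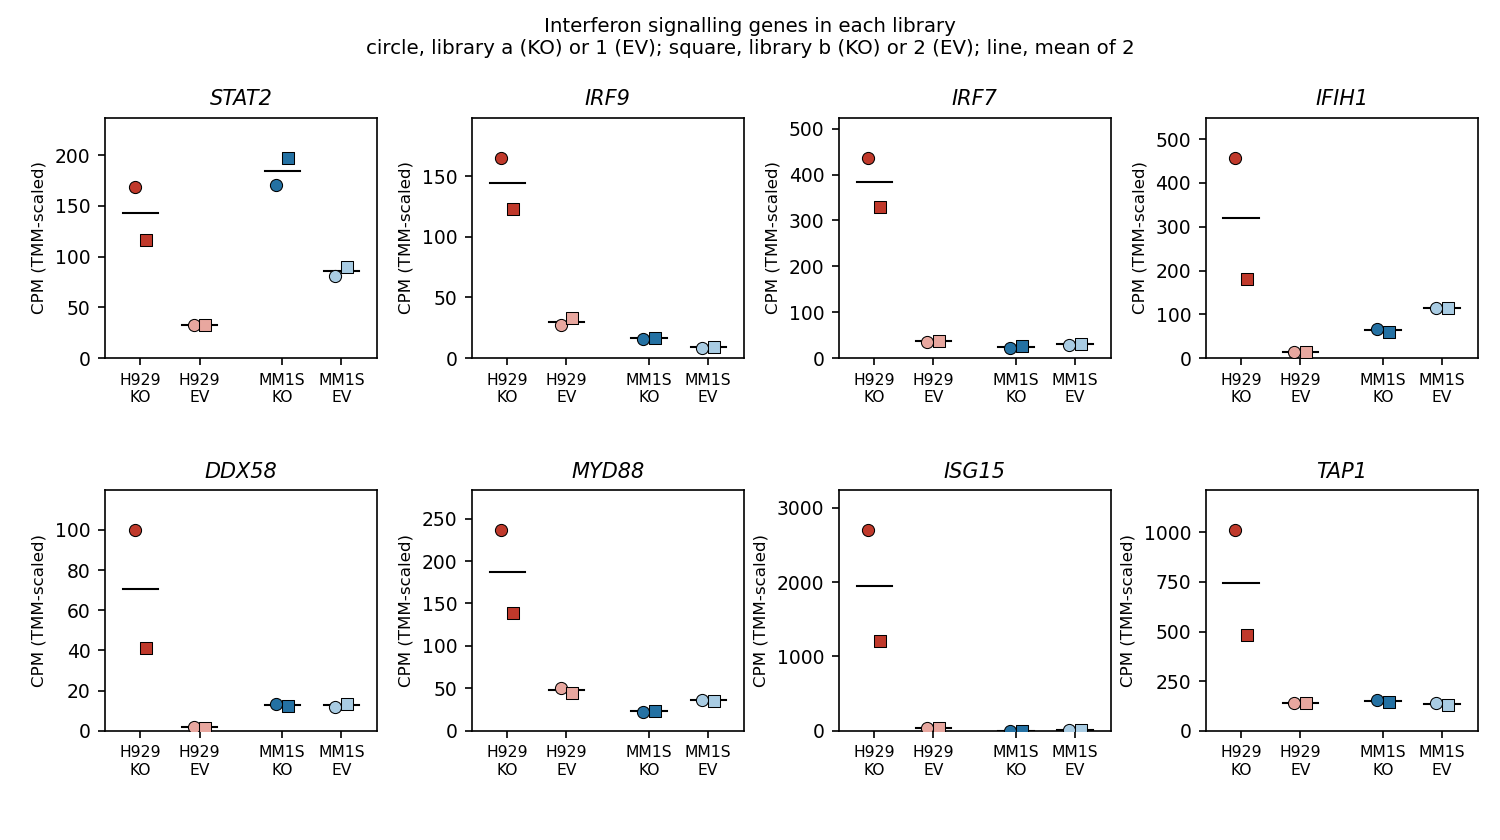
TMM-scaled CPM (y axis, from 0) of 8 genes of interferon signalling, sensing and antigen presentation in each library, with knockout (KO) left of empty vector (EV) in each line and a line at the mean of 2. STAT2 is raised in knockout libraries of both lines. IRF7, DDX58, ISG15 and TAP1 are raised in both H929 knockout libraries, more in library a, and IFIH1 and MYD88 are lower in MM1S knockout than in MM1S empty vector cells.

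Antigen presentation separated into genes that responded in both lines and genes that did not. Of 22 class I presentation genes, 11 rose in H929 and 13 in MM1S, 7 in both, and none fell, whereas 5.92% of all genes rose in H929 and 15.6% in MM1S. These counts were 4 to 10 in H929, lowest without H929 empty vector library 1, and 8 to 13 in MM1S, lowest without MM1S empty vector library 2 or MM1S knockout library b, when 1 library was left out. In the difference 4 were called higher and 3 lower, with a median of 0.02, against 6.94% and 8.91% of all genes. TAP1, a peptide transporter (chromosome 6, 32845209 to 32853704), had 1010 and 481 CPM in H929 knockout cells against 138 and 138 CPM in H929 empty vector cells. TAP1 in MM1S stood at 155 and 147 CPM in knockout cells against 142 and 130.0 CPM in empty vector cells, and its difference was 2.28 ± 0.32 (adjusted p = 0.000215 by edgeR). HLA-B, a class I heavy chain, rose by 0.99 ± 0.20 in H929 and 1.03 ± 0.20 in MM1S, and the 95% interval of its difference was -0.65 to 0.56. B2M, the light chain, rose by 0.95 ± 0.15 in H929 and 0.71 ± 0.15 in MM1S, with an interval of -0.22 to 0.70. Without H929 knockout library a, 2 members were called higher and 5 lower, and without library b 7 were called higher and 1 lower. Over all 8 such fits, 2 to 7 were called higher and 1 to 5 lower. Class I heavy chain genes are near-identical, and reads could be shared between them.

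Class II presentation genes gave 7 higher and 0 lower of 16 tested, with a median of 1.45, against 6.94% and 8.91% of all genes. HLA-DPA1 and CD74 nevertheless stayed far lower in H929 than in MM1S. HLA-DPA1, a class II chain (chromosome 6, 33064569 to 33080748), had 5.77 and 4.55 CPM in H929 knockout cells against 0.283 and 0.355 CPM in H929 empty vector cells. HLA-DPA1 in MM1S stood at 98.5 and 103 CPM in knockout cells against 75 and 77.8 CPM in empty vector cells, and its difference was 3.58 ± 0.44 (adjusted p = 6.71e-05 by edgeR). CIITA, the master regulator of class II genes (chromosome 16, 10866206 to 10943021), had 5.23 and 5.32 CPM in H929 knockout cells against 1.25 and 1.52 CPM in H929 empty vector cells. CIITA in MM1S stood at 20.2 and 21.3 CPM in knockout cells against 17.3 and 18.7 CPM in empty vector cells, and its difference was 1.72 ± 0.37 (adjusted p = 0.0051 by edgeR). CTSS, a protease that trims the invariant chain, had 210.4 and 91.9 CPM in H929 knockout cells against 43.3 and 42.3 CPM in H929 empty vector cells. CTSS in MM1S stood at 99.5 and 106 CPM in knockout cells against 91.8 and 95.1 CPM in empty vector cells, and its difference was 1.68 ± 0.35 (adjusted p = 0.00446 by edgeR). The CTSS difference was 0.97 without H929 knockout library a, and it was not called when only the 8 libraries were fitted (adjusted p = 0.0871 by edgeR). Of these 3, CTSS alone reached MM1S levels in H929 knockout cells. CD74, the invariant chain, was at 1.72 and 1.54 CPM in H929 knockout cells against 0.113 and 0.507 CPM in H929 empty vector cells, and at 1946 and 1872 CPM in MM1S knockout cells against 1340 and 1337 CPM in MM1S empty vector cells, and its difference of 1.81 ± 0.60 (adjusted p = 0.0536 by edgeR) was not called. Leaving out 1 of the 8 libraries gave 3 to 8 called higher of the 16, the fewest without H929 empty vector library 1, H929 knockout library a or MM1S empty vector library 1.

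Of 26 NF-kB subunits and targets, 5 were called higher and 1 lower, with a median of 0.46, against 6.94% and 8.91% of all genes. Without H929 knockout library a the median difference of the list was 0.24. The subunits NFKB1, RELA, REL, RELB and NFKB2 gave differences from -0.20 to 0.61, none called, and 3 of the 5 genes called higher were chemokines. CCL4, a chemokine that draws T cells and monocytes (chromosome 17, 36103827 to 36105614), had 350.1 and 142 CPM in H929 knockout cells against 16.6 and 13.3 CPM in H929 empty vector cells. CCL4 in MM1S stood at 5.43 and 6.95 CPM in knockout cells against 13 and 12.7 CPM in empty vector cells. It rose in H929 and fell in MM1S, and its difference was 5.09 ± 0.50 (adjusted p = 1.51e-05 by edgeR). CCL3 (chromosome 17, 36088256 to 36090143), a neighbouring chemokine known in myeloma bone disease, had 3918 and 2888 CPM in H929 knockout cells against 1237 and 1201 CPM in H929 empty vector cells. CCL3 in MM1S stood at 541 and 535 CPM in knockout cells against 1547 and 1585 CPM in empty vector cells, and its difference was 3.02 ± 0.43 (adjusted p = 0.000229 by edgeR). CCL5, a further T cell chemokine, had 82.1 and 47.5 CPM in H929 knockout cells against 38.5 and 37.3 CPM in H929 empty vector cells. CCL5 in MM1S stood at 14.5 and 12.2 CPM in knockout cells against 33.4 and 32.1 CPM in empty vector cells, and its difference was 2.07 ± 0.34 (adjusted p = 0.000804 by edgeR). All 3 were called up in H929 and down in MM1S. CCL3 and CCL4 have near-identical copies in the same cluster, which may share their reads. ICAM1, an adhesion molecule (chromosome 19, 10271120 to 10286615), went the other way, with 31.2 and 24.6 CPM in H929 knockout cells against 38.5 and 32.4 CPM in H929 empty vector cells. ICAM1 in MM1S stood at 68.6 and 67 CPM in knockout cells against 12.2 and 11.2 CPM in empty vector cells, and its difference was -2.87 ± 0.28 (adjusted p = 8.69e-06 by edgeR).

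**Figure D3:**
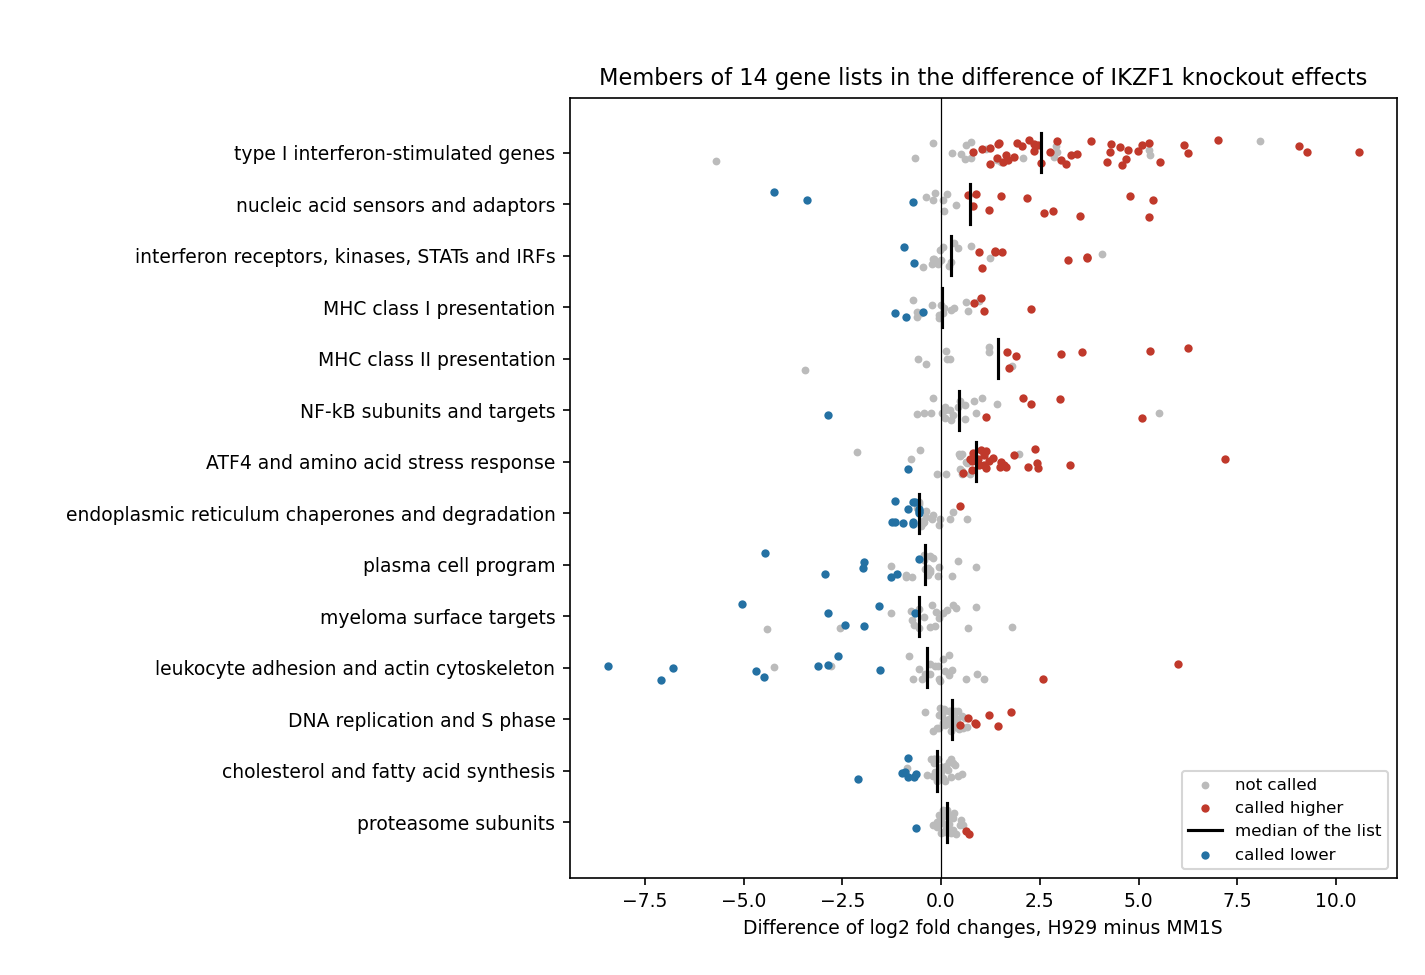
Each point is a tested member of 1 of 14 gene lists, placed by its difference of log2 fold changes, H929 minus MM1S (x axis), with called members in colour and the median as a black bar. The interferon-stimulated genes have a median of 2.53 and the ATF4 genes of 0.88, whereas chaperones have a median of -0.55 and proteasome subunits of 0.15.

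Genes of the ATF4 response were also higher in the difference, and here the larger movement was in MM1S, where most of them fell. Few were called in H929 in the fit on all 18 libraries. Of 44 tested, 26 were called higher in the difference and 1 lower, with a median of 0.88, against 6.94% and 8.91% of all genes. In MM1S 36 fell and 1 rose (12.6% of all genes fell), with a median log2 fold change of -1.01. In H929 5 fell and 1 rose (4.60% of all genes fell), with a median of -0.20. With only the 8 libraries fitted, 3107 of all genes were called in H929 and 6118 in MM1S. Of the ATF4 genes, 13 then fell and 2 rose in H929, and 39 fell and 0 rose in MM1S. In the difference, 35 were called higher and 1 lower in that fit. The H929 falls numbered 0 to 6 when 1 library was left out, with 0 without H929 empty vector library 1, H929 empty vector library 2 or H929 knockout library a, and the MM1S falls 34 to 36. The summed level of the 44 genes was 9517 and 10820 CPM in H929 knockout cells against 10840 and 11540 CPM in H929 empty vector cells, and 4382 and 4326 CPM in MM1S knockout cells against 7670 and 7670 CPM in MM1S empty vector cells. A total of 20 members were called higher in every fit without 1 of the 8 libraries.

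ATF4 itself, the transcription factor of the response, had 343 and 382 CPM in H929 knockout cells against 421 and 447 CPM in H929 empty vector cells. ATF4 in MM1S stood at 204 and 200.3 CPM in knockout cells against 526 and 509.9 CPM in empty vector cells. The MM1S knockout libraries were the lowest of the 8, and the difference was 1.10 ± 0.23 (adjusted p = 0.0042 by edgeR). PSAT1, an enzyme of serine synthesis (chromosome 9, 78297125 to 78330093), had 159 and 233 CPM in H929 knockout cells against 254 and 282 CPM in H929 empty vector cells. PSAT1 in MM1S stood at 35.6 and 32.5 CPM in knockout cells against 242 and 247 CPM in empty vector cells, and its difference was 2.39 ± 0.27 (adjusted p = 5.95e-05 by edgeR). PHGDH, the first enzyme of that pathway, fell in MM1S with a log2 fold change of -2.48 ± 0.22 and was at -0.02 ± 0.20 in H929, a difference of 2.46 ± 0.30 (adjusted p = 0.000185 by edgeR). ASNS, which makes asparagine, had 188 and 254 CPM in H929 knockout cells against 244 and 265 CPM in H929 empty vector cells. ASNS in MM1S stood at 45.1 and 37.1 CPM in knockout cells against 148 and 149.5 CPM in empty vector cells, and its difference was 1.65 ± 0.23 (adjusted p = 0.000185 by edgeR). For PSAT1 and ASNS, the MM1S knockout libraries stood below every other library.

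SLC6A9, a glycine transporter (chromosome 1, 43996483 to 44031462), had 31.8 and 46 CPM in H929 knockout cells against 33.5 and 35.2 CPM in H929 empty vector cells. SLC6A9 in MM1S stood at 4.55 and 4.39 CPM in knockout cells against 35.6 and 40.8 CPM in empty vector cells, and its difference was 3.27 ± 0.23 (adjusted p = 8.07e-07 by edgeR). GPT2, a mitochondrial alanine transaminase (chromosome 16, 46884362 to 46931289), had 75.2 and 103 CPM in H929 knockout cells against 94.2 and 100.1 CPM in H929 empty vector cells. GPT2 in MM1S stood at 13.4 and 13.7 CPM in knockout cells against 70.0 and 65.1 CPM in empty vector cells, and its difference was 2.19 ± 0.20 (adjusted p = 4.76e-06 by edgeR). CEBPB, a transcription factor that acts with ATF4 (chromosome 20, 50190583 to 50192690), had 122 and 89.5 CPM in H929 knockout cells against 87.6 and 82.7 CPM in H929 empty vector cells. CEBPB in MM1S stood at 5.98 and 5.22 CPM in knockout cells against 23.9 and 24.5 CPM in empty vector cells, and its difference was 2.42 ± 0.23 (adjusted p = 9.01e-06 by edgeR). In all 3 genes the MM1S knockout libraries were the lowest of the 8, and no H929 change was called. TRIB3, a pseudokinase that feeds back on ATF4, and CHAC1, which degrades glutathione, gave 1.48 and 1.84, both called. ATF3, a stress-induced partner, rose in H929 and fell in MM1S (0.87 ± 0.16 and -0.66 ± 0.14), with a difference of 1.52 ± 0.21 (adjusted p = 0.000212 by edgeR). SLC7A11, the cystine transporter, fell in both lines (-1.45 ± 0.41 in H929 and -2.10 ± 0.35 in MM1S), and the interval of its difference, -0.51 to 1.81, includes 0. The transporters SLC3A2, SLC7A1 and SLC38A2 gave 0.62, 0.53 and 0.46, not called. SLC1A4, a neutral amino acid transporter, was the member called lower, with a difference of -0.83 ± 0.21 (adjusted p = 0.0148 by edgeR) that was lost in 4 of the 8 fits without 1 library.

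The element bound by ATF4 with C/EBP partners, searched as TGATGNAA on both strands, was present in 11 of the 37 ATF4 genes with a promoter (29.7%) and in 197 of 11376 tested genes with a promoter (1.73%). It was present in 2.51% of promoters of genes called higher and 1.75% of those called lower. The 5 called members with the largest differences that held it upstream of the listed start are shown with the match in capitals, in either orientation. For ASNS and MTHFD1L that start lies inside the span of the gene in the annotation.
CHAC1, chr15:40953237-40953294, plus strand: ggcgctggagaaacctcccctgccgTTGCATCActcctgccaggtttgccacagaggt
ASNS, chr7:97872444-97872501, minus strand: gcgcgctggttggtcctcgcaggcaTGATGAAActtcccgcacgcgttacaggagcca
ATF3, chr1:212565191-212565248, plus strand: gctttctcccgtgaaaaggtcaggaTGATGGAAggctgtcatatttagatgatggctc
MTHFD1L, chr6:150866332-150866389, plus strand: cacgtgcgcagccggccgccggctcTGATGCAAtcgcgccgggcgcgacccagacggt
AARS, chr16:70289661-70289718, minus strand: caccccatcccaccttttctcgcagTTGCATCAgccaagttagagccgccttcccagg
MTHFD1L, of mitochondrial one-carbon metabolism, and AARS, the alanyl-tRNA synthetase, gave differences of 1.32 ± 0.16 (adjusted p = 6.86e-05 by edgeR) and 0.56 ± 0.17 (adjusted p = 0.0372 by edgeR), the AARS call holding in 1 of the 8 fits without 1 library. The interferon element was present in 1 of these 37 promoters, and the ATF4 element in 1 of the 48 promoters of interferon-stimulated genes.

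Chaperones and degradation factors of the endoplasmic reticulum were lower in the difference, with more calls in MM1S than in H929. Of 29 tested, 12 were called lower in the difference and 1 higher, with a median of -0.55, against 8.91% and 6.94% of all genes. In MM1S 16 rose and 2 fell, against 15.6% and 12.6% of all genes, and in H929 2 rose and 4 fell, against 5.92% and 4.60%. The MM1S rises numbered 8 to 15 when 1 library was left out, lowest without MM1S empty vector library 1 or MM1S empty vector library 2, and the H929 falls 1 to 4, lowest without H929 empty vector library 1, H929 empty vector library 2 or H929 knockout library a. With only the 8 libraries fitted, 21 members were called lower in the difference and 14 fell in H929. HSPA5, the main chaperone of the endoplasmic reticulum, also called BiP (chromosome 9, 125234853 to 125241343), had 1325 and 1318 CPM in H929 knockout cells against 1652 and 1655 CPM in H929 empty vector cells. HSPA5 in MM1S stood at 1713 and 1634 CPM in knockout cells against 1168 and 1168 CPM in empty vector cells, and its difference was -0.84 ± 0.14 (adjusted p = 0.000924 by edgeR). PDIA6, a disulfide isomerase (chromosome 2, 10783391 to 10837712), had 104 and 139 CPM in H929 knockout cells against 218 and 222 CPM in H929 empty vector cells. PDIA6 in MM1S stood at 729 and 681 CPM in knockout cells against 555 and 535 CPM in empty vector cells. It was called lower in H929 and higher in MM1S, and its difference was -1.23 ± 0.17 (adjusted p = 0.00022 by edgeR). SYVN1, a ubiquitin ligase of protein degradation (chromosome 11, 65127279 to 65134519), and HYOU1, a large chaperone (chromosome 11, 119044188 to 119057205), were called in the same opposite directions, with differences of -1.17 ± 0.14 (adjusted p = 6.71e-05 by edgeR) and -0.95 ± 0.14 (adjusted p = 0.000355 by edgeR). EIF2AK3, the kinase PERK that acts upstream of ATF4, rose in both lines, by 0.76 ± 0.21 in H929 and 0.78 ± 0.21 in MM1S, and HERPUD1, a degradation factor, rose in both with a difference of 0.30 that was not called. A total of 8 members were called lower in every fit without 1 library.

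Several members of the plasma cell list, which shares CD79A and CD79B with the B cell list, also rose in MM1S and fell in H929. Of 26 in the plasma cell program, 7 were called lower in the difference and 0 higher, with a median of -0.42. Of all genes, 8.91% were called lower and 6.94% higher. In H929 2 rose and 7 fell, against 5.92% and 4.60% of all genes, and in MM1S 10 rose and 0 fell, against 15.6% and 12.6%. The H929 falls numbered 3 to 6 when 1 library was left out, lowest without H929 empty vector library 2. With only the 8 libraries fitted, 12 were called lower in the difference. SDC1, which encodes the plasma cell surface proteoglycan CD138 (chromosome 2, 20200797 to 20225475), had 418 and 408 CPM in H929 knockout cells against 704 and 704 CPM in H929 empty vector cells. SDC1 in MM1S stood at 1714 and 1627 CPM in knockout cells against 737 and 734 CPM in empty vector cells. The lines had like levels in empty vector cells and lay far apart in knockout cells, and the difference was -1.95 ± 0.18 (adjusted p = 5.09e-06 by edgeR). JCHAIN, which joins antibodies into polymers (chromosome 4, 70655541 to 70666508), had 9190 and 9575 CPM in H929 knockout cells against 12990 and 13820 CPM in H929 empty vector cells. JCHAIN in MM1S stood at 6703 and 7215 CPM in knockout cells against 4223 and 4112 CPM in empty vector cells, and its difference was -1.25 ± 0.14 (adjusted p = 3.33e-05 by edgeR). In the authors' deposited log2 FPKM table, JCHAIN read 12.22 and 12.22 in the H929 knockout columns against 12.77 in the merged empty vector column, and 12.22 and 12.22 in the MM1S knockout columns against 11.61 in that line's merged column. All 4 knockout columns hold the same value there, and the direction in each line is that of the counts. CD79B, a chain of the B cell receptor (chromosome 17, 63928740 to 63932331), had 6.79 and 12 CPM in H929 knockout cells against 23.3 and 25 CPM in H929 empty vector cells. CD79B in MM1S stood at 36.9 and 34 CPM in knockout cells against 4.05 and 4.22 CPM in empty vector cells, and its difference was -4.46 ± 0.44 (adjusted p = 1.02e-05 by edgeR). CAV1, a membrane scaffold (chromosome 7, 116525009 to 116561185), was low in H929, with 0.546 and 1.31 CPM in H929 knockout cells against 4.47 and 3.85 CPM in H929 empty vector cells. CAV1 in MM1S stood at 111 and 107 CPM in knockout cells against 60.3 and 66.6 CPM in empty vector cells, and its difference was -2.93 ± 0.33 (adjusted p = 3.32e-05 by edgeR). For SDC1, JCHAIN, CD79B and CAV1 a fall in H929 and a rise in MM1S were both called. DERL3, a degradation factor of secretory cells, gave -1.97 ± 0.31 (adjusted p = 0.000624 by edgeR). TNFRSF17, which encodes BCMA, and PRDM1, the plasma cell regulator Blimp-1, gave -0.05 and -0.34, not called, with intervals of -0.47 to 0.37 and -0.85 to 0.17.

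CD38, an NAD-consuming ectoenzyme (chromosome 4, 15778328 to 15853232), had 435 and 237 CPM in H929 knockout cells against 90.3 and 90.0 CPM in H929 empty vector cells. CD38 in MM1S stood at 23.4 and 20.9 CPM in knockout cells against 10.8 and 11.2 CPM in empty vector cells. All knockout libraries were above the empty vector libraries of their line. The difference was 0.89 ± 0.30 (adjusted p = 0.0595 by edgeR), just short of the threshold, with a 95% interval of 0.24 to 1.53. Without H929 knockout library a it was 0.39 (adjusted p = 0.259 by edgeR), and it was called in 1 of the 8 fits that left out a library. Among 27 surface targets of myeloma, 6 were called lower in the difference and 0 higher, with a median of -0.56. Of all genes, 8.91% were called lower and 6.94% higher. MME, the peptidase CD10 (chromosome 3, 155024202 to 155183729), had 1.56 and 1.77 CPM in H929 knockout cells against 1.36 and 1.27 CPM in H929 empty vector cells. MME in MM1S stood at 251 and 306 CPM in knockout cells against 5.82 and 7.65 CPM in empty vector cells, and its difference was -5.03 ± 0.61 (adjusted p = 6.89e-05 by edgeR). CD59, a complement inhibitor (chromosome 11, 33703010 to 33736479), had 233 and 272 CPM in H929 knockout cells against 289 and 289.8 CPM in H929 empty vector cells. CD59 in MM1S stood at 1338 and 1226 CPM in knockout cells against 511 and 486 CPM in empty vector cells, and its difference was -1.56 ± 0.16 (adjusted p = 1.87e-05 by edgeR). NCAM1, the adhesion molecule CD56, was high in H929 throughout and rose in MM1S, with 14.4 and 15.9 CPM in MM1S knockout cells against 2.06 and 3.10 CPM in MM1S empty vector cells, a difference of -2.43 ± 0.36 (adjusted p = 0.000398 by edgeR). CD55, a further complement inhibitor, fell in both lines, with log2 fold changes of -1.55 ± 0.14 in H929 and -1.42 ± 0.14 in MM1S, and the interval of the difference was -0.55 to 0.30.

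Many replication genes fell in MM1S. Of 44 genes of DNA replication and S phase, 25 fell in MM1S and 1 fell in H929, and 7 were called higher in the difference and 0 lower, with a median of 0.29. Of all genes, 12.6% fell in MM1S, 4.60% fell in H929 and 6.94% were called higher. When 1 library was left out the MM1S falls numbered 9 to 25, lowest without MM1S knockout library b, and 4 to 7 were called higher, lowest without H929 empty vector library 1, H929 empty vector library 2 or MM1S knockout library b. PCNA, the sliding clamp of DNA polymerase (chromosome 20, 5114953 to 5126622), had 87.8 and 104 CPM in H929 knockout cells against 89.2 and 97.7 CPM in H929 empty vector cells. PCNA in MM1S stood at 105 and 90.7 CPM in knockout cells against 325 and 327 CPM in empty vector cells. The MM1S empty vector libraries stood above the other 6, and the difference was 1.77 ± 0.18 (adjusted p = 1.41e-05 by edgeR). GINS1, a subunit of the replicative helicase (chromosome 20, 25407673 to 25448563), had 31.4 and 32.5 CPM in H929 knockout cells against 30.9 and 32.5 CPM in H929 empty vector cells. GINS1 in MM1S stood at 31 and 29.5 CPM in knockout cells against 77.6 and 84.6 CPM in empty vector cells, and its difference was 1.44 ± 0.18 (adjusted p = 8.24e-05 by edgeR). E2F2, a driver of S phase genes (chromosome 1, 23505212 to 23531233), had 149 and 232 CPM in H929 knockout cells against 190.0 and 189 CPM in H929 empty vector cells. E2F2 in MM1S stood at 176 and 166 CPM in knockout cells against 384 and 401 CPM in empty vector cells, and its difference was 1.21 ± 0.21 (adjusted p = 0.00134 by edgeR). In all 3 genes the MM1S empty vector libraries were the highest of the 8. Of 40 genes of mitosis and the spindle, 2 were called higher and 0 lower, a share of 5% against 6.94% of all genes, with a median of 0.08. CDC25B, the phosphatase that starts mitosis (chromosome 20, 3786951 to 3806115), was 1 of these, with 320.3 and 251 CPM in H929 knockout cells against 196 and 188 CPM in H929 empty vector cells. CDC25B in MM1S stood at 86 and 87.5 CPM in knockout cells against 150.2 and 159 CPM in empty vector cells, and its difference was 1.41 ± 0.18 (adjusted p = 8.56e-05 by edgeR). The other, ESPL1, was called in 1 of the 8 fits without 1 library.

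**Figure D4:**
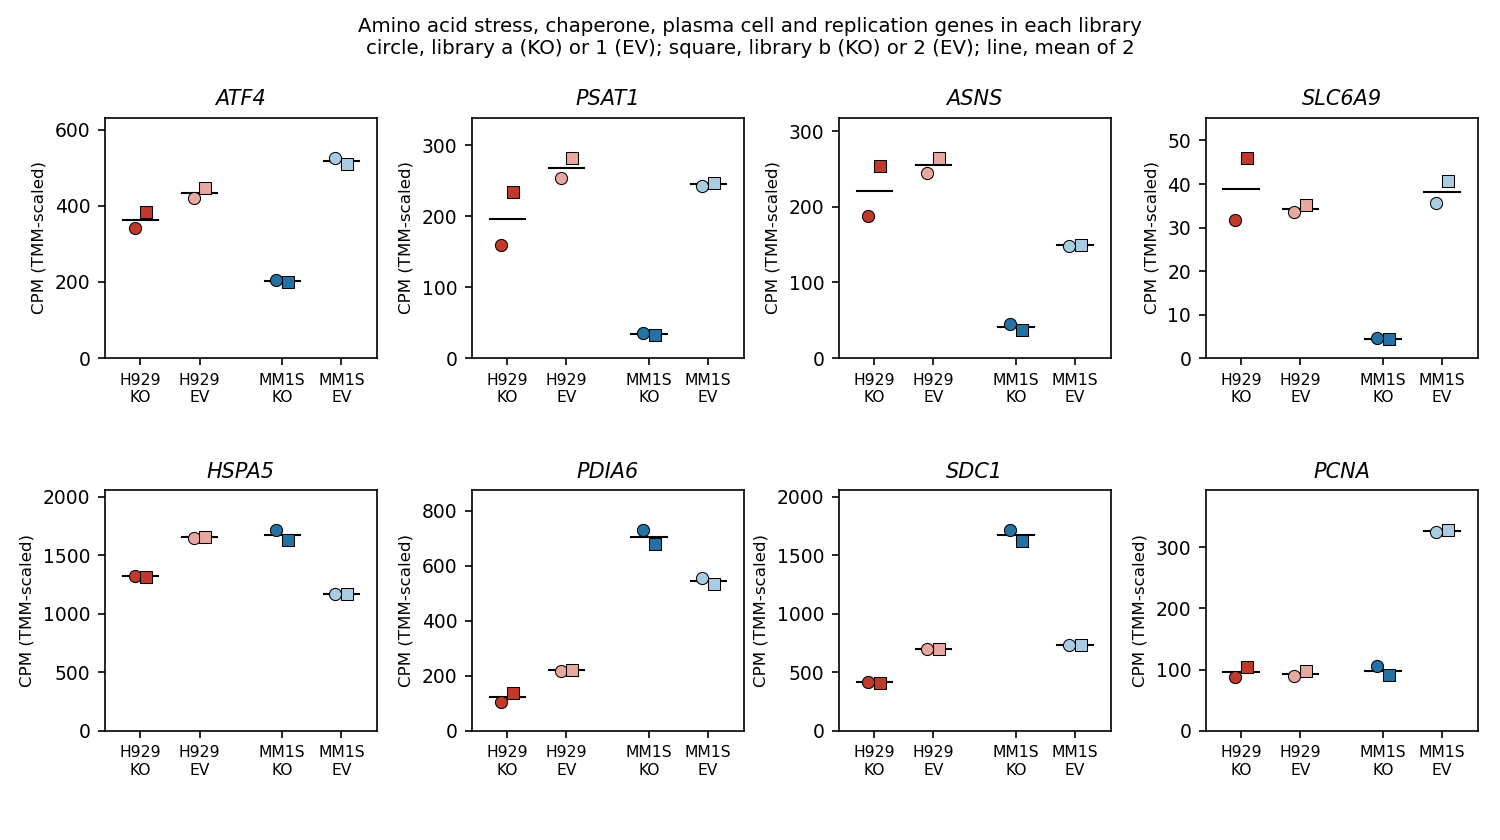
TMM-scaled CPM (y axis, from 0) of 8 genes in each library, with knockout (KO) left of empty vector (EV) in each line and a line at the mean of 2. ATF4, PSAT1, ASNS, SLC6A9 and PCNA are lower in MM1S knockout than in MM1S empty vector cells, with no H929 change called for these 5. HSPA5, PDIA6 and SDC1 are lower in H929 knockout and higher in MM1S knockout than in the empty vector cells of the line. The changes in both lines were called for PDIA6 and SDC1, but not for HSPA5.

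Of 23 G1 regulators, 4 were called higher and 3 lower, with a median of 0.29, against 6.94% and 8.91% of all genes. Among them, CCND2 had the smallest adjusted p of all genes tested. CCND2, the D-type cyclin of many B cell tumours (chromosome 12, 4273762 to 4305353), had 3.35 and 2.24 CPM in H929 knockout cells against 279.8 and 268 CPM in H929 empty vector cells. CCND2 in MM1S stood at 549 and 596 CPM in knockout cells against 891 and 921 CPM in empty vector cells. It fell in both lines and almost vanished from H929, with log2 fold changes of -6.61 ± 0.17 in H929 and -0.66 ± 0.12 in MM1S, and the difference was -5.95 ± 0.20 (adjusted p = 2.53e-10 by edgeR). CCND3 (chromosome 6, 41934933 to 42050035) rose in H929, with 280.3 and 358 CPM in H929 knockout cells against 156 and 154 CPM in H929 empty vector cells. CCND3 in MM1S stood at 69.3 and 64.2 CPM in knockout cells against 91.5 and 87.1 CPM in empty vector cells, and its difference was 1.46 ± 0.22 (adjusted p = 0.000479 by edgeR). CCND1 had 224 and 144 CPM in H929 knockout cells against 138 and 124 CPM in H929 empty vector cells. CCND1 in MM1S stood at 10.1 and 3.39 CPM in knockout cells against 14 and 13 CPM in empty vector cells, and its difference was 1.47 ± 0.47 (adjusted p = 0.0519 by edgeR), not called. CDKN2A and CDKN2B, neighbouring inhibitors of the cyclin D kinases (chromosome 9, 21967752 to 21995324, and chromosome 9, 22002903 to 22009313), rose in MM1S from very low levels. CDKN2A had 63.7 and 65 CPM in H929 knockout cells against 71 and 77 CPM in H929 empty vector cells. CDKN2A in MM1S stood at 1.83 and 2.15 CPM in knockout cells against 0.117 and 0.132 CPM in empty vector cells, and its difference was -4.12 ± 0.59 (adjusted p = 0.000248 by edgeR). CDKN2B had 4.99 and 3.08 CPM in H929 knockout cells against 3.74 and 4.41 CPM in H929 empty vector cells. CDKN2B in MM1S stood at 3.67 and 5.55 CPM in knockout cells against 0.235 and 0.0660 CPM in empty vector cells, and its difference was -4.83 ± 0.55 (adjusted p = 3.57e-05 by edgeR). H929 levels of CDKN2B overlapped between knockout and empty vector cells, and no H929 change was called for either gene. CDKN2C, the related inhibitor p18, was abundant in H929 and nearly absent from MM1S, with 403 and 226 CPM in H929 knockout cells against 369.8 and 365 CPM in H929 empty vector cells. CDKN2C in MM1S stood at 0 and 0.911 CPM in knockout cells against 0.0588 and 0.264 CPM in empty vector cells, and its difference of -1.59 ± 1.51 (adjusted p = 0.558 by edgeR) was not called. The members CDK2, CDK4, CDK6, CDKN1A, CDKN1B, CDKN1C, RB1, RBL1, RBL2, E2F1, E2F3, MDM2 and CCNE2 gave differences from -0.44 to 0.61, none called. CCNE1 (0.85) and CDKN2D (1.01) were called, but not in all 8 fits without 1 library, with adjusted p up to 0.0802 and 0.2 by edgeR, and CDKN2D stood at 0.58 without H929 knockout library b.

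In cholesterol and fatty acid synthesis, 7 of 34 genes were called lower in the difference and 0 higher, with a median of -0.09, against 8.91% and 6.94% of all genes. In H929 1 rose and 9 fell, against 5.92% and 4.60% of all genes, and in MM1S 2 rose and 3 fell, against 15.6% and 12.6%. SQLE, the squalene epoxidase (chromosome 8, 124998505 to 125022283), had 55 and 40.0 CPM in H929 knockout cells against 69.7 and 74.1 CPM in H929 empty vector cells. SQLE in MM1S stood at 40.1 and 42 CPM in knockout cells against 15.3 and 13.3 CPM in empty vector cells. It was called lower in H929 and higher in MM1S, and its difference was -2.11 ± 0.24 (adjusted p = 3.33e-05 by edgeR). SREBF2, the transcription factor of sterol synthesis, gave a difference of -0.83 ± 0.17 (adjusted p = 0.00393 by edgeR). The count called lower was 3 to 7 when 1 library was left out, lowest without H929 empty vector library 2, H929 knockout library a, MM1S empty vector library 1 or MM1S knockout library b. Of 32 genes of glycolysis and the hypoxia response, 5 were called higher and 2 lower, with a median of 0.25, against 6.94% and 8.91% of all genes. Those called higher numbered 1 to 4 when 1 library was left out, lowest without MM1S knockout library a, and 1 member was called higher in every such fit. LDHA, lactate dehydrogenase (chromosome 11, 18394563 to 18408425), had 2569 and 2790 CPM in H929 knockout cells against 2421 and 2635 CPM in H929 empty vector cells. LDHA in MM1S stood at 833 and 769 CPM in knockout cells against 1501 and 1462 CPM in empty vector cells, and its difference was 0.97 ± 0.16 (adjusted p = 0.000673 by edgeR). LDHA fell in MM1S, and PDK1 moved the other way there. PDK1, which restrains pyruvate oxidation (chromosome 2, 172555373 to 172724312), had 246 and 349 CPM in H929 knockout cells against 308 and 308 CPM in H929 empty vector cells. PDK1 in MM1S stood at 434 and 478 CPM in knockout cells against 138 and 142 CPM in empty vector cells, and its difference was -1.75 ± 0.32 (adjusted p = 0.00166 by edgeR). EPAS1, a hypoxia-inducible factor, was low throughout, with 0.702 and 1.31 CPM in H929 knockout cells against 5.04 and 4.10 CPM in H929 empty vector cells. EPAS1 in MM1S stood at 12.8 and 15.2 CPM in knockout cells against 6.17 and 5.28 CPM in empty vector cells, and its difference was -3.46 ± 0.52 (adjusted p = 0.000424 by edgeR).

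Of 32 cell death genes, 5 were called higher and 2 lower, with a median of 0.22, against 6.94% and 8.91% of all genes. With 1 library left out 2 to 5 were called higher, the fewest without H929 empty vector library 2. TNFSF10, the death ligand TRAIL and an interferon-stimulated gene (chromosome 3, 172505508 to 172523430), had 248 and 60.8 CPM in H929 knockout cells against 1.02 and 1.67 CPM in H929 empty vector cells. TNFSF10 in MM1S stood at 15.3 and 13.6 CPM in knockout cells against 4.29 and 5.54 CPM in empty vector cells, and its difference was 5.26 ± 0.77 (adjusted p = 0.000329 by edgeR). That call was lost when only the 8 libraries were fitted (adjusted p = 0.0681 by edgeR). PMAIP1, the BH3-only protein NOXA (chromosome 18, 59899996 to 59904305), had 14 and 5.63 CPM in H929 knockout cells against 5.72 and 5.17 CPM in H929 empty vector cells. PMAIP1 in MM1S stood at 8.29 and 6.38 CPM in knockout cells against 25.7 and 24.2 CPM in empty vector cells, and its difference was 2.61 ± 0.46 (adjusted p = 0.00136 by edgeR), although H929 knockout library b lay between the H929 empty vector libraries. CASP10, a death receptor caspase, gave -0.85 ± 0.16 (adjusted p = 0.00184 by edgeR). Of 51 MYC targets and ribosome biogenesis genes, 2 were called higher (3.92%) and 2 lower (3.92%), with a median of 0.09. Of 31 proteasome subunits, 2 were called higher (6.45%) and 1 lower (3.23%), with a median of 0.15. The shares of both lists were below those of all genes, 6.94% higher and 8.91% lower. MXD4, an antagonist of MYC (chromosome 4, 2247432 to 2262109), had 66.3 and 64.9 CPM in H929 knockout cells against 83.9 and 82.2 CPM in H929 empty vector cells. MXD4 in MM1S stood at 159 and 170.2 CPM in knockout cells against 67.3 and 64 CPM in empty vector cells, and its difference was -1.67 ± 0.28 (adjusted p = 0.000957 by edgeR). ODC1, the MYC target that starts polyamine synthesis, fell in both lines, more in H929, with a difference of -0.68 ± 0.15 (adjusted p = 0.00485 by edgeR). The proteasome calls, PSMA2, PSMA4 and PSMD1, were each lost in at least 4 of the 8 fits without 1 library.

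In the Ikaros family and the cereblon ligase, the median difference was 0.01. Of 13 members, ZNF692 alone was called, with a difference of 0.92 ± 0.28 (adjusted p = 0.0357 by edgeR), and that call was lost in all 8 fits without 1 library. IKZF3 had 292 and 195 CPM in H929 knockout cells against 183 and 152 CPM in H929 empty vector cells. IKZF3 in MM1S stood at 160.4 and 176 CPM in knockout cells against 97.7 and 112 CPM in empty vector cells, and its difference was -0.14 ± 0.24 (adjusted p = 0.777 by edgeR) with a 95% interval of -0.66 to 0.37. IKZF2, which encodes Helios, rose in both lines, by 1.32 ± 0.23 in H929 and 0.86 ± 0.28 in MM1S. CRBN, CUL4A, CUL4B, DDB1, RBX1, ZFP91, CSNK1A1, IKZF4 and IKZF5 gave differences from -0.34 to 0.54, none called.

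Many of the largest differences in single genes lay outside these pathways. SSTR3, a somatostatin receptor (chromosome 22, 37204237 to 37220548), had 11.4 and 4.94 CPM in H929 knockout cells against 1.42 and 0.912 CPM in H929 empty vector cells. SSTR3 in MM1S stood at 1.09 and 0.580 CPM in knockout cells against 16 and 14.5 CPM in empty vector cells. It rose in H929 and fell in MM1S, and its difference was 6.96 ± 0.58 (adjusted p = 2.31e-06 by edgeR). AHNAK, a very large scaffold protein under the membrane (chromosome 11, 62433544 to 62546806), had 270.3 and 449.8 CPM in H929 knockout cells against 191 and 178 CPM in H929 empty vector cells. AHNAK in MM1S stood at 4.96 and 4.64 CPM in knockout cells against 157 and 163 CPM in empty vector cells. The MM1S knockout libraries were far below every other, and the difference was 6.02 ± 0.47 (adjusted p = 1.66e-06 by edgeR). SYNJ2, an inositol phosphatase (chromosome 6, 157981296 to 158099176), had 22.7 and 36.7 CPM in H929 knockout cells against 44.7 and 41.9 CPM in H929 empty vector cells. SYNJ2 in MM1S stood at 0.0679 and 0.331 CPM in knockout cells against 27.3 and 23.7 CPM in empty vector cells. FERMT3, the integrin activator kindlin-3 (chromosome 11, 64205920 to 64223891), had 268 and 290.3 CPM in H929 knockout cells against 259 and 268 CPM in H929 empty vector cells. FERMT3 in MM1S stood at 2.92 and 1.16 CPM in knockout cells against 127 and 126 CPM in empty vector cells. Both were nearly lost from MM1S knockout cells, and their differences were 6.49 ± 0.60 (adjusted p = 6.5e-06 by edgeR) and 5.99 ± 0.32 (adjusted p = 2.89e-08 by edgeR). HPSE, the heparanase that trims SDC1, had 4.06 and 0.231 CPM in H929 knockout cells against 0 and 0.253 CPM in H929 empty vector cells. HPSE in MM1S stood at 4.55 and 4.39 CPM in knockout cells against 18.4 and 20.1 CPM in empty vector cells. Its difference of 6.03 ± 1.28 (adjusted p = 0.00875 by edgeR) was lost without library a (adjusted p = 0.265).

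In the other direction, several genes fell in H929 and rose in MM1S. NDNF, a secreted neurotrophic factor (chromosome 4, 121035613 to 121072535), had 0.312 and 0.154 CPM in H929 knockout cells against 14.9 and 16.6 CPM in H929 empty vector cells. NDNF in MM1S stood at 159.9 and 164 CPM in knockout cells against 12.3 and 13.3 CPM in empty vector cells. The lines were at like levels in empty vector cells and moved apart by both a fall and a rise, giving the most negative difference of this set, -9.70 ± 0.39 (adjusted p = 1.63e-09 by edgeR). ITGA8, an integrin chain (chromosome 10, 15513954 to 15719922), had 5.23 and 9.95 CPM in H929 knockout cells against 141 and 140.2 CPM in H929 empty vector cells. ITGA8 in MM1S stood at 323 and 345 CPM in knockout cells against 55.4 and 56.9 CPM in empty vector cells, and its difference was -6.78 ± 0.36 (adjusted p = 2.89e-08 by edgeR). ABCG2, a drug efflux transporter (chromosome 4, 88090264 to 88231626), had 3.20 and 1.62 CPM in H929 knockout cells against 7.98 and 8.66 CPM in H929 empty vector cells. ABCG2 in MM1S stood at 15.5 and 16.2 CPM in knockout cells against 0.823 and 1.12 CPM in empty vector cells, and its difference was -5.81 ± 0.36 (adjusted p = 1.75e-07 by edgeR). CYSLTR1, a leukotriene receptor (chromosome X, 78271468 to 78327611), had 1.95 and 0.308 CPM in H929 knockout cells against 27.2 and 24.2 CPM in H929 empty vector cells. CYSLTR1 in MM1S stood at 147 and 157 CPM in knockout cells against 71.5 and 70.7 CPM in empty vector cells, and its difference was -5.60 ± 0.51 (adjusted p = 5.8e-06 by edgeR). For all 4, knockout and empty vector libraries of a line did not overlap, which adds no support because the genes were picked for large called differences.

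CTSL, cathepsin L (chromosome 9, 87726119 to 87731469), had 8.35 and 5.55 CPM in H929 knockout cells against 12.3 and 13.8 CPM in H929 empty vector cells. CTSL in MM1S stood at 14.8 and 11 CPM in knockout cells against 0.588 and 0.660 CPM in empty vector cells, and its difference was -5.27 ± 0.42 (adjusted p = 3.33e-05 by edgeR). CTSZ, cathepsin Z (chromosome 20, 58995185 to 59007254), had 0.390 and 0.0771 CPM in H929 knockout cells against 3.23 and 2.89 CPM in H929 empty vector cells. CTSZ in MM1S stood at 65.7 and 58.3 CPM in knockout cells against 28.2 and 25.3 CPM in empty vector cells, and its difference was -4.88 ± 0.47 (adjusted p = 9.01e-06 by edgeR). HID1, a Golgi protein of secretory granules (chromosome 17, 74950742 to 74972759), had 15.8 and 15.4 CPM in H929 knockout cells against 53 and 49.5 CPM in H929 empty vector cells. HID1 in MM1S stood at 3.33 and 6.79 CPM in knockout cells against 0.470 and 0.594 CPM in empty vector cells, and its difference was -4.93 ± 0.57 (adjusted p = 3.92e-05 by edgeR). All 3 genes were called lower in H929 and higher in MM1S, whereas CTSS, a further cathepsin, had a positive difference (1.68). SELENOP, a secreted carrier of selenium (chromosome 5, 42799880 to 42811892), was below 1 CPM in all H929 libraries and rose in MM1S, with 25.9 and 27.3 CPM in MM1S knockout cells against 0.646 and 1.25 CPM in MM1S empty vector cells, a difference of -4.96 ± 0.87 (adjusted p = 0.00125 by edgeR).

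Of 32 adhesion and actin genes, 2 were called higher and 9 lower, with a median of -0.35, against 6.94% and 8.91% of all genes. LCP1, the leukocyte actin bundler L-plastin (chromosome 13, 46125923 to 46182177), had 2.11 and 2.93 CPM in H929 knockout cells against 56.9 and 56.1 CPM in H929 empty vector cells. LCP1 in MM1S stood at 1891 and 1885 CPM in knockout cells against 1898 and 1866 CPM in empty vector cells. It fell in H929 and was not called in MM1S, where it was far more abundant, and its difference was -4.49 ± 0.21 (adjusted p = 5.24e-09 by edgeR). ARHGDIB, a signalling regulator of blood cells, fell likewise in H929, with 1.25 and 2.00 CPM in H929 knockout cells against 42.1 and 42.5 CPM in H929 empty vector cells. ARHGDIB in MM1S stood at 932 and 824 CPM in knockout cells against 912 and 856 CPM in empty vector cells, and its difference was -4.68 ± 0.44 (adjusted p = 8.12e-06 by edgeR). VIM, the intermediate filament vimentin, fell in MM1S, with 54.1 and 80.5 CPM in MM1S knockout cells against 478 and 491 CPM in MM1S empty vector cells, a difference of 2.58 ± 0.28 (adjusted p = 2.39e-05 by edgeR). CD9, a tetraspanin (chromosome 12, 6199946 to 6238266), had 2 counts over the H929 knockout libraries and 122 over the H929 empty vector libraries, a ratio of 42.1 lower with a counting interval of 11.4 to 351.2. In MM1S it had 14308 counts in knockout cells and 4827 in empty vector cells, 3.56-fold higher (3.44 to 3.68). The fitted difference, -7.09, depends on the prior count.

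Of 25 B cell genes, 3 were called higher and 6 lower, against 6.94% and 8.91% of all genes. Their median was -0.89, or -0.82 with groups at or under 3 counts set to that floor, which applied to 10 of them. With only the 8 libraries fitted, 10 were called lower. SPI1, which encodes the transcription factor PU.1, had 0 counts in H929 knockout cells and 148 in H929 empty vector cells, at least 34-fold lower against a floor of 3 counts over the group, and 454 counts in MM1S knockout cells against 790 in MM1S empty vector cells, 1.45-fold lower (1.29 to 1.63). BTK, the kinase of B cell receptor signalling, had 1 count in H929 knockout cells and 174 in H929 empty vector cells, a ratio of 120 lower (21.3 to 4765), and 92 counts in MM1S knockout cells against 676 in MM1S empty vector cells, 6.12-fold lower (4.92 to 7.70). ID3, an inhibitor of helix-loop-helix factors (chromosome 1, 23557926 to 23559501), had 21.1 and 21.9 CPM in H929 knockout cells against 57.9 and 59.3 CPM in H929 empty vector cells. ID3 in MM1S stood at 22.7 and 14.9 CPM in knockout cells against 8.70 and 6.60 CPM in empty vector cells, and its difference was -2.74 ± 0.48 (adjusted p = 0.00129 by edgeR). EMC10, a subunit of the complex that inserts proteins into the endoplasmic reticulum membrane, had 2 counts in H929 knockout cells and 1036 in H929 empty vector cells, a ratio of 357.1 lower (98.6 to 2953), and 5217 counts in MM1S knockout cells against 4579 in MM1S empty vector cells. QPCT and ADGRG1 were nearly absent from all H929 libraries, with at most 6 counts over a group, and rose in MM1S, 2.41-fold (2.35 to 2.46) and 5.29-fold (4.95 to 5.67). Their differences were near the threshold (adjusted p = 0.0334 and 0.0329 by edgeR). The fitted values, -5.72 and -6.32, were -1.73 and -2.28 with groups at or under 3 counts set to that floor. BCL2L2, a survival protein of the BCL2 family, had 51 counts in MM1S knockout cells and 2 in MM1S empty vector cells, a ratio of 30.6 higher (8.05 to 259.6), against 384 counts in H929 knockout cells and 372 in H929 empty vector cells. These intervals cover counting error only.

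**Figure D5:**
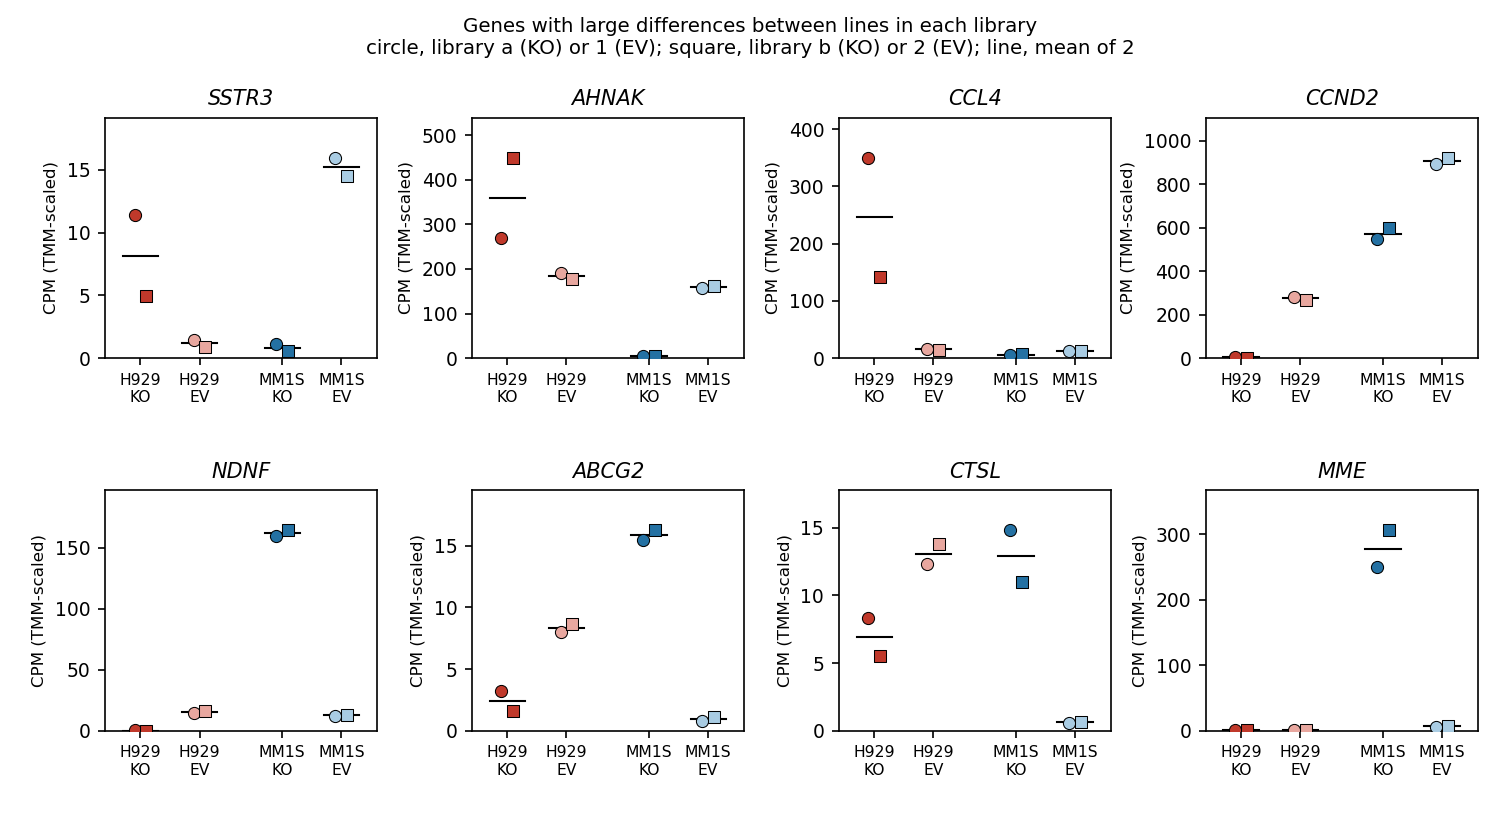
TMM-scaled CPM (y axis, from 0) of 8 genes with large differences between the lines in each library, with knockout (KO) left of empty vector (EV) in each line and a line at the mean of 2. SSTR3 and CCL4 are higher in H929 knockout and lower in MM1S knockout cells, NDNF, ABCG2 and CTSL are lower in H929 knockout and higher in MM1S knockout cells, while CCND2 is near 0 in H929 knockout cells.

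Other genes moved the same way in both lines. Of the genes called in both lines, 315 rose in both and 151 fell in both, beside the 72 and 136 that went opposite ways. The difference was called for 86 of the 315 and for 24 of the 151. In OPM2, where the empty vector pair stood apart, 24 of the 61 interferon-stimulated genes rose (16.2% of all genes) and 1 fell (20.0%) after IKZF1 knockout, where the median log2 fold change was 1.24, and 29 of the 44 ATF4 genes fell and 0 rose, with a median of -0.58. Those values stand beside medians of 3.69 and -0.20 in H929 and 0.69 and -1.01 in MM1S, and the differences from OPM2 were not tested here.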

How the data were processed

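RNA from live-sorted cells was made into TruSeq libraries, per the labels' protocols. Per the submitters' processing notes, the tools named are Subread, featureCounts and limma, and the builds GRCh38 and hg38. Raw counts per gene were deposited for 28395 Entrez genes in 18 libraries. The authors also deposited log2 FPKM values for 16352 genes in 14 columns, with control libraries merged. Those columns were used only for a check without a test. Rows without a gene symbol (385) were named by their Entrez number.

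Counts were filtered with filterByExpr by group, leaving 14571 genes, scaled by TMM and fitted with edgeR 4.0.16 in R 4.3.3 (quasi-likelihood F-test, robust) as 1 model of group means over all 18 libraries with 9 residual degrees of freedom. The contrast was knockout minus empty vector in H929, minus the same in MM1S. Genes with an adjusted p below 0.05 (Benjamini-Hochberg, over all 14571) were called. Errors are the standard error of the log2 value, and intervals are 95%. CPM values are TMM-scaled and given per library, with 2 libraries a group. Groups with at most 3 counts are described by raw counts with exact binomial intervals, which cover counting error only, and a floor of 3 counts over the group. An exact permutation test of 2 against 2 libraries cannot go below p = 0.333 and was not used. Totals of 12020380 to 20757799 counts set the precision of low genes.

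Gene lists, members and named genes were chosen with earlier results of these data known. Genes are named by a rule: the 3 genes IKZF1, IKZF3 and CD38, then the 10 most positive and the 10 most negative called differences and the 10 largest that were opposite in the lines (mean log2 CPM of 1 or more, over 3 counts in each group), per list the 4 genes of smallest p, all members of 4 short lists, and 4 called genes with a group at or under 3 counts. Other list members are named for their role, and their values had been seen. Because of this choice, the order of the libraries in a named gene describes it and adds no support. Alternatives were other scalings, filters, DESeq2 1.42.0, limma-voom (limma 3.58.1), a test against 1.5-fold, and fits on fewer libraries. The fits were run on simulated data with 200 changed genes and the same spread for every gene and group. Pairs of libraries here were not equally close, so that run checks the code and not the error rate of these calls. Gene positions and promoter sequences come from RefSeq, GRCh38.p14. Some members of the lists are not reported here.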

Additional observations from a re-analysis of the deposited data

Results flagged for a closer look

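The comparison of effects is itself a test of a difference between 2 groups, so all of the following results stand out because the knockout effect differed between the lines with a called difference. In all, 2310 genes did so, and those given here were called in both lines, in opposite directions. Values are differences of log2 fold changes, H929 minus MM1S.

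In the genes that rose in H929 and fell in MM1S, the difference was 6.96 for SSTR3, 6.02 for AHNAK, 5.36 for IFIH1 and 5.09 for CCL4. It was 3.02 for CCL3, 2.07 for CCL5 and 1.41 for CDC25B.

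In the genes that fell in H929 and rose in MM1S, the difference was -9.70 for NDNF, -6.78 for ITGA8, -5.81 for ABCG2, -5.60 for CYSLTR1 and -5.27 for CTSL. It was -4.93 for HID1, -4.88 for CTSZ, -3.46 for EPAS1, -2.74 for ID3 and -2.11 for SQLE. In the plasma cell list it was -4.46 for CD79B, which is in the B cell list too, -2.93 for CAV1, -1.95 for SDC1 and -1.25 for JCHAIN. In the endoplasmic reticulum it was -1.23 for PDIA6, -1.17 for SYVN1 and -0.95 for HYOU1. CD9 gave a fitted difference of -7.09, which depends on the prior count because the H929 knockout libraries held 2 counts.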

How the results depend on the processing

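The 2310 genes called in the difference numbered 2301 to 2632 under other scalings, no filter, DESeq2 and limma-voom, and 2166 with a CPM of at least 5 in at least 2 libraries. Counts moved by more than 1.5 times with the libraries in the fit and with the fold tested. With only the 8 H929 and MM1S libraries there were 4080 genes in the difference, 3107 in H929 (1532 before) and 543 called in opposite directions (208 before). Tested against 1.5-fold, there were 1004 in the difference, 521 in H929, 1464 in MM1S (4114 before) and 30 opposite. Leaving out 1 library, OPM2 empty vector libraries included, gave 1436 to 4316 genes in the difference, 683 to 3325 in H929, 2322 to 6316 in MM1S and 77 to 570 opposite. The highest counts came without OPM2 empty vector replicate 1 or 2 (4306 and 4316 in the difference). The lowest came without an H929 empty vector library (1479 and 1459) or an MM1S empty vector library (1452 and 1436). H929 counts fell to 829 without H929 knockout library a, and MM1S counts to 2485 without MM1S knockout library b. Where a group was left with 1 library, that library was assumed to vary like the other groups. No gene called in the difference was called in the opposite direction under any alternative with a test, and the cause of these changes was not tested. No paired analysis was possible because the knockout columns carry no replicate numbers of the titles. With 2 libraries a group, low counts limit what can be called, and a difference not called is not shown to be absent.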
